A study of Mus musculus with 5 samples.

Results

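The amino acid response driven by the transcription factor ATF4 was followed through 10 genes: Atf4 itself, Trib3, Asns, Phgdh, Psat1, Shmt2, Slc7a5, Sesn2, Ddit4 and Chac1. They were chosen by name as known members of this response, with earlier results of these data known. Numbers set beside those of all genes are therefore descriptions. The set is 10 of the 27729 genes in the deposited expression tables. All 10 reached 10 or more expected counts in at least 1 library and entered every comparison. RNA was sequenced from mouse embryonic fibroblasts (MEFs), primary connective tissue cells of mid-gestation ICR embryos, kept in culture in DMEM with fetal bovine serum, Glutamax and non-essential amino acids (day 0), and from the same kind of culture on days 2, 5, 10 and 14 after a change to a defined serum-free medium. The study used this medium to turn MEFs towards neuron-like cells. The labels call it 6C and the paper calls it 5C, a DMEM/F12 base with bFGF, LIF, the N2 supplement, ascorbate and the reducing agent mercaptoethanol. No transgene or genetic change is named for any day, and the embryos had lost the head and internal organs before the cells were taken. Each day is 1 library, so no difference between days has a replicate check and no p-value is given. No culture was kept in the serum medium to a later day, so the medium and the time in culture cannot be told apart.

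When cells run short of amino acids, uncharged tRNAs activate the kinase GCN2 (Eif2ak4), which phosphorylates the translation factor eIF2α. General protein synthesis slows while the Atf4 mRNA is translated better, and ATF4 protein then switches on genes for amino acid synthesis, amino acid uptake, tRNA charging and restraint of the growth kinase mTORC1. Stress in the endoplasmic reticulum reaches the same factor through the kinase PERK (Eif2ak3). Because much of this control acts on translation, mRNA levels of Atf4 do not report the amount of its protein, which was not measured here.

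ATF4 binds composite sites built around the letters TGATGNAA, which read TTNCATCA on the other strand. RefSeq promoter windows, from 250 bases before to 50 bases after the annotated start on build GRCm38.p6, were searched for these letters on both strands. Windows were found for 9 of the 10 genes, all but Slc7a5, and 3 of the 9 genes held a match: Asns, Chac1 and Trib3. Over all genes with such windows, 1219 of 27025 (4.51%) held one, and by window the number was 1304 of 32851 (3.97%). The stretches around the 3 matches are printed on the gene's own strand, 5′ to 3′, because these members' windows hold the letters searched for. Capitals mark the match.
Asns: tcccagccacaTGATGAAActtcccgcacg
Chac1: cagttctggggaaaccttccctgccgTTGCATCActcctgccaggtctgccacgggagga
Trib3: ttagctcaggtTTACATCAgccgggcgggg
The Asns stretch is chr6:7693214-7693243 on the minus strand, and its match begins 23 bases before the start. The Chac1 stretch is chr2:119351023-119351082 on the plus strand, with the match 193 bases before the start. The Trib3 stretch is chr2:152344028-152344057 on the minus strand, and the match begins at base 15 of the transcript. These starts are those of the RefSeq transcripts, which lie 45 bases inside the GENCODE gene for Asns, 13 bases inside it for Chac1 and 28 bases outside it for Trib3, so distances do not carry over to the gene coordinates printed with the values. A match is a stretch of letters, and binding was not measured. For the other 6 genes the letters are not in the window, which says nothing of sites elsewhere.

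The libraries held 2253748 to 3890334 expected counts, with the smallest on day 2, and the share of Gm42418, a gene that overlaps ribosomal RNA, was 4.79% there and at most 0.109% in the others. Counts were divided by effective library size (TMM), scaled so that a normalized count stays close to an expected count. A change is the log2 ratio of the normalized count plus 1 to day 0 plus 1. Its 95% interval (exact Clopper-Pearson) was computed from the rounded counts without the added 1 and covers counting error only. At low counts the change and the ratio under the interval differ. For Chac1 on day 10 they were -2.49 and -2.71. A gene is said to have risen or fallen where its change passed 2-fold. Runs of 5 values follow the order of the days from day 0 to day 14, and runs of 4 changes that of the later days. The choice of scaling matters here. Against TMM, the deposited TPM values shifted the median change of all 13346 tested genes by -0.17, 0.56, 0.95 and 0.72 on days 2, 5, 10 and 14, and scaling to total counts shifted it by 0.37, 0.46 and 0.35 on days 5, 10 and 14. With TMM 3826 genes had risen and 2974 had fallen by day 10, against 7057 and 904 with TPM. Values relative to the median of all genes and count ratios within a library are therefore given beside the changes.

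With TMM, most of the 10 genes were lower in the defined medium than in the starting MEFs, and 7 of them had their lowest level on day 10. That low point depended on the scaling: DESeq2 size factors and quantile normalization gave 7 as well, total counts gave 5, and with TPM only Chac1 was lowest on day 10 while 8 were lowest on day 2. On day 2, 3 of the 10 (Atf4, Trib3 and Slc7a5) fell and none rose, where 13.1% of all tested genes fell and 15.2% rose. Day 5 had 3 fallen (Atf4, Trib3 and Phgdh) and 1 risen (Ddit4), with 13.6% and 20.2% of all genes passing in those directions. Day 10 had 7 fallen, namely Atf4, Asns, Trib3, Chac1, Phgdh, Slc7a5 and Shmt2, and none risen, where 22.3% of all genes fell and 28.7% rose. By day 14, 5 had fallen (Atf4, Asns, Trib3, Phgdh and Slc7a5) and 1 had risen (Ddit4), against 19.9% and 24.5% of all genes. The 4 comparisons share the day 0 library, so an unusual value there would enter all of them.

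The median change of the 10 genes was -0.58, -0.53, -1.73 and -0.99, where the median of all tested genes was -0.03, 0.05, 0.14 and 0.07. With TPM the medians of the 10 were -0.92, 0.16, -0.52 and -0.14, so the sign on day 5 turned, with 6 of the 10 above day 0, and the lowest median was that of day 2, while the median of all genes was -0.20, 0.61, 1.09 and 0.78. The distance below the median of all genes on day 10 was 1.87 with TMM and 1.61 with TPM. Under TMM, 7, 8, 9 and 9 of the 10 genes were below that median on the 4 days, and DESeq2 size factors, total counts and TPM gave the same numbers. Quantile normalization gave 7, 7, 8 and 9. Ddit4 was above the median of all genes on every day under all 6 scalings.

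**Figure D1:**
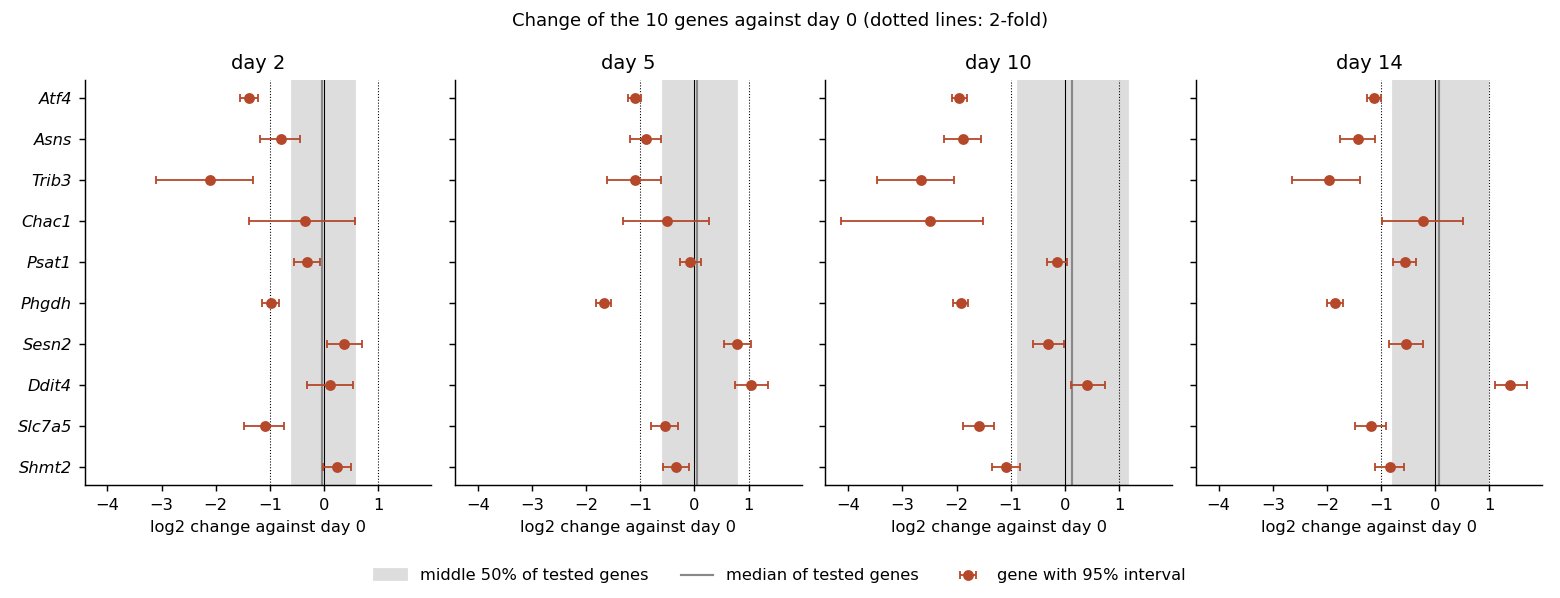
Log2 change against day 0 (x axis) of each of the 10 genes (rows) on days 2, 5, 10 and 14 (panels); points are TMM-scaled values with 95% counting intervals, the grey band holds the middle 50% of the 13346 tested genes and dotted lines mark 2-fold. On day 10, 7 points lie beyond 2-fold on the left and Ddit4 is the only point to the right of the grey line.

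The regulator itself was high at the start and lower on every later day. Atf4 (ENSMUSG00000042406, chr15:80255184-80257541, plus strand) had normalized counts of 1629, 624, 759, 422 and 744 from day 0 to day 14. Day 0 stood alone above the rest, day 10 was the lowest, and days 5 and 14 did not differ beyond counting error. The changes were -1.38 (-1.56 to -1.22), -1.10 (-1.22 to -0.98), -1.95 (-2.09 to -1.81) and -1.13 (-1.25 to -1.01). Atf4 was below day 0 under all 6 scalings on each day, and its smallest day 10 change was the -0.78 of TPM. The order of the later days was not as stable, since TPM put day 2 lowest (-1.64) and total counts put days 2 and 10 level (-1.46 and -1.47). As a level per length, its TPM was 334 at the start and 279 at the end, the highest of the 10 genes on both days.

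Trib3 encodes a pseudokinase that binds ATF4 and damps the response. Its normalized counts (ENSMUSG00000032715, chr2:152337422-152344032, minus strand) were 104, 23.5, 48.1, 15.7 and 25.9. Day 0 was again highest, day 5 was the next, and days 14, 2 and 10 could not be ordered beyond counting error, with 29, 13 and 22 expected counts. The changes were -2.10, -1.09, -2.65 (-3.46 to -2.05) and -1.96, and each was below day 0 under all 6 scalings. On day 10 Trib3 had the most negative change of the 10 genes with TMM, at 6.28-fold below day 0, whereas with TPM its lowest value was that of day 2 (-2.11).

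Asparagine synthetase, encoded by Asns (ENSMUSG00000029752, chr6:7675169-7693254, minus strand), makes asparagine from aspartate and glutamine and is a standard readout of ATF4. Its normalized counts were 272, 156, 146, 73.6 and 101. The level was highest on day 0 and lowest on day 10, and days 2 and 5 were alike within counting error. The changes were -0.80, -0.89, -1.87 (-2.23 to -1.56) and -1.42 (-1.76 to -1.11), below 0 under all 6 scalings on every day. With TPM day 2 was the lowest, at -1.41 beside -0.56 on day 5 and -1.08 on day 10.

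The serine pathway did not move as a unit. Phgdh, Psat1 and Psph encode the successive enzymes that make serine from a glycolytic intermediate, and Shmt2 encodes the mitochondrial enzyme that passes a carbon from serine to folate. Phgdh (ENSMUSG00000053398, chr3:98313170-98339990, minus strand) had normalized counts of 1507, 763, 471, 398 and 418. It was highest on day 0, intermediate on day 2 and low from day 5 on, with days 5 and 14 and days 14 and 10 not separated by counting error. Its changes were -0.98, -1.68, -1.92 (-2.06 to -1.78) and -1.85, below day 0 under all 6 scalings. With TPM the lowest day was day 2 (-1.24), and day 10 (-0.63) was the closest to day 0. Psat1 (ENSMUSG00000024640, chr19:15904678-15947337, minus strand) had 447, 360.0, 424, 405 and 301, and no neighbouring pair in this order of levels differed beyond counting error. Its changes were -0.31 (-0.56 to -0.07), -0.08, -0.14 and -0.57 (-0.78 to -0.36), with intervals below 0 on days 2 and 14, the signs on days 5 and 10 being positive with total counts, TPM and quantile normalization.

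Within a library, the count ratio of Phgdh to Psat1 needs no library scaling, but it is not corrected for transcript length. It was 3.37, 2.12, 1.11, 0.982 and 1.39. The ratio was highest on day 0 and its log2 change was -0.67 (-0.96 to -0.37), -1.60 (-1.84 to -1.36), -1.78 (-2.01 to -1.55) and -1.28 (-1.54 to -1.02). All 4 intervals lie below 0, though they do not cover the length assigned to each gene. That length was 1776 bases for Psat1 on day 0 and 2381 on day 10, and 1893 and 1742 for Phgdh. In TPM, a level per length, the day 10 change was -0.63 for Phgdh and 0.59 for Psat1. This pair and the other pairs below were chosen after the values had been seen. Psph, the last enzyme, had normalized counts of 82.1, 63.3, 71.8, 57.8 and 74.2, with changes from -0.50 to -0.15. Only its day 10 interval (-0.97 to -0.05) excluded 0, and with TPM the changes were -0.45, 0.61, 0.60 and 0.77.

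Shmt2 (ENSMUSG00000025403, chr10:127517123-127522444, minus strand) had normalized counts of 314, 371, 248, 147 and 174. Days 2 and 0 were highest and days 14 and 10 lowest, without a difference beyond counting error within either pair. The change on day 10 was -1.09 (-1.35 to -0.84) with TMM, -0.62 with total counts and 0.07 with TPM, so its direction rested on the scaling. Its cytosolic relative Shmt1 had 92.8, 47.3, 34.3, 26.6 and 30.7 normalized counts, and changes of -0.96, -1.41, -1.76 and -1.56. Near-identical copies lie elsewhere in the GENCODE annotation for Phgdh, Psat1 and Shmt2 and are not listed in the count tables. Phgdh had many, with 118 to 1621 aligned bases, among them Gm7901 (98.7% identity over 1597 bases). For Psat1 the copy was Gm12611 (91.0% over 1056 bases) and for Shmt2 Gm15544 (90.1% over 233 bases). Reads of such copies could have been counted under these 3 genes, most of all under Phgdh, and their part was not tested. Shmt2 also shares 32 exon bases with Ndufa4l2 on the other strand, which had at most 9 expected counts, and the library kit does not mark strand.

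**Figure D2:**
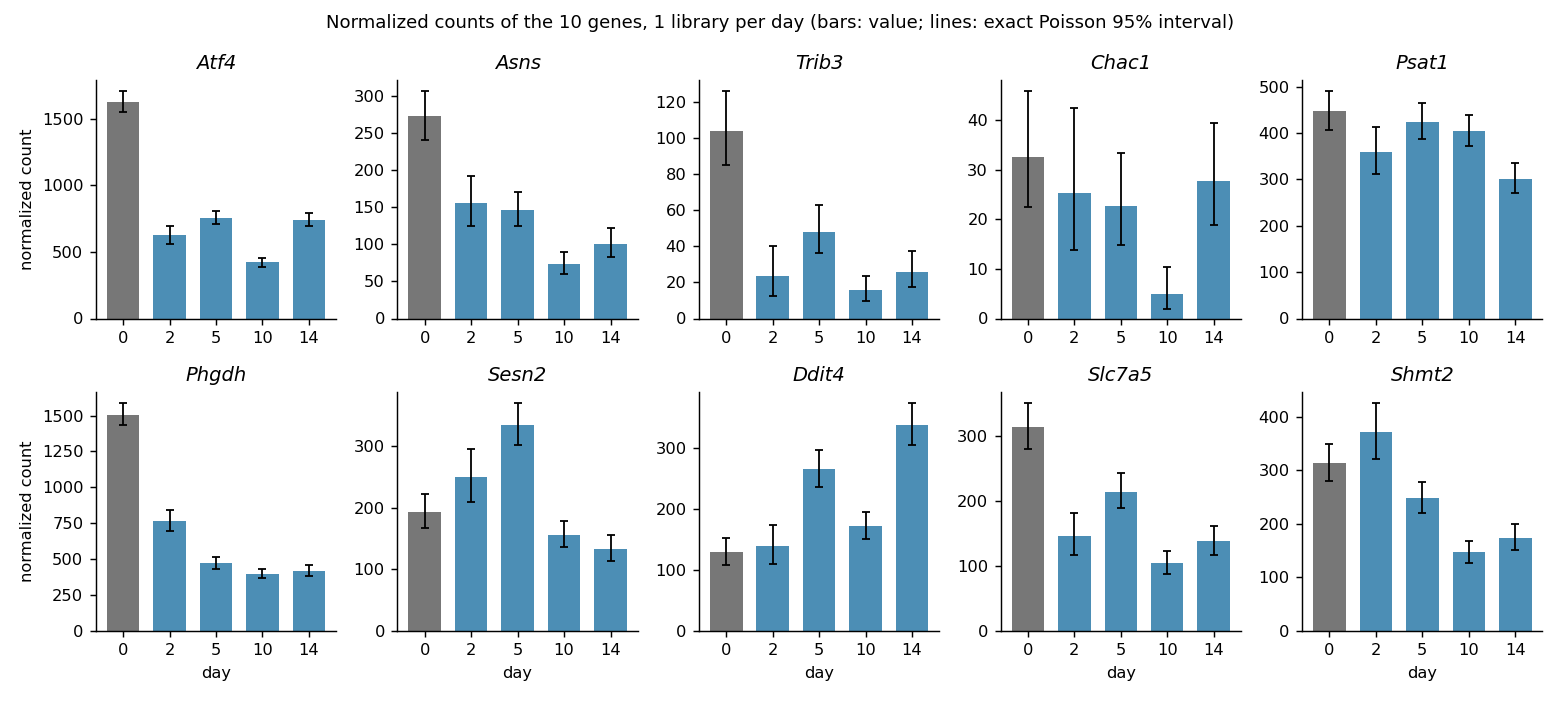
Normalized counts (y axis, from 0, its range differing by panel) of the 10 genes by day (x axis), with 1 library a day; bars are values and lines exact Poisson 95% intervals. Atf4, Trib3, Asns, Phgdh and Slc7a5 have their tallest bar on day 0, Sesn2 on day 5 and Ddit4 on day 14.

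Slc7a5 encodes the light chain of the LAT1 transporter, which brings in leucine and other large neutral amino acids, and works as a pair with the heavy chain encoded by Slc3a2. Normalized counts of Slc7a5 (ENSMUSG00000040010, chr8:121881150-121907694, minus strand) were 314, 147, 214, 104 and 138. Day 0 was highest, day 5 came next and day 10 was lowest. The changes were -1.09 (-1.47 to -0.74), -0.55, -1.58 (-1.88 to -1.30) and -1.18 (-1.48 to -0.91), and only the day 5 value changed sign with a scaling, to 0.16 with TPM. Day 2 was the lowest with TPM (-1.29, beside -0.40 on day 10) and with total counts (-1.17, beside -1.11). Slc3a2 was lower as well, with 1171 normalized counts on day 0 and 468, 595, 380 and 504 later. The count ratio of Slc7a5 to Slc3a2 was 0.268, 0.313, 0.360, 0.275 and 0.273, and its log2 change was 0.43 (0.14 to 0.71) on day 5 and 0.04 (-0.29 to 0.36) on day 10, with intervals that included 0 on days 2 and 14 as well.

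Sesn2 and Ddit4 both restrain mTORC1, Sesn2 as a leucine sensor and Ddit4 (REDD1) as a stress and hypoxia target. Sesn2 was above the median of all genes on days 2 and 5 and below it on days 10 and 14 under all 6 scalings. Sesn2 (ENSMUSG00000028893, chr4:132492032-132510501, minus strand) had normalized counts of 193, 249.7, 334, 156 and 133. It was highest on day 5, next on day 2, and below day 0 on days 10 and 14. None of its changes (0.37, 0.79, -0.31 and -0.53) passed 2-fold with TMM, but day 5 did so with total counts (1.16) and TPM (1.46). The day 10 value was positive with total counts (0.16) and TPM (0.83), and the day 14 value with TPM (0.33).

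Ddit4 (ENSMUSG00000020108, chr10:59949669-59951834, minus strand) had normalized counts of 129, 139, 265, 172 and 337 on the same days. Day 14 was highest and day 5 the next, while days 10, 2 and 0 formed the low end in that order without a difference beyond counting error between neighbours. Its changes were 0.11, 1.04 (0.74 to 1.35), 0.42 (0.11 to 0.74) and 1.38 (1.10 to 1.69), above day 0 under all 6 scalings on days 5, 10 and 14. In TPM, a level per length, Ddit4 was 27.0 on day 0 and 130 on day 14, moving from the seventh to the third of the 10 genes.

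The count ratio of Ddit4 to Atf4 was 0.0790, 0.223, 0.349, 0.408 and 0.453. It was lowest on day 0, and its log2 change reached 2.52 (2.20 to 2.84) on day 14, a 5.73-fold shift. For Sesn2 to Atf4 the ratio was 0.118, 0.400, 0.441, 0.369 and 0.179, with a log2 change of 1.89 (1.61 to 2.18) on day 5 and 0.60 (0.25 to 0.94) on day 14. Psat1 to Atf4 also lay above its day 0 ratio on every later day, with changes of 1.07, 1.03, 1.80 (1.58 to 2.03) and 0.56, and that of Shmt2 reached 1.62 (1.31 to 1.94) on day 2. Asns to Atf4 was 0.167, 0.249, 0.193, 0.174 and 0.136, and only the day 2 interval (0.17 to 0.97) excluded 0. Trib3 to Atf4 changed by -0.76, -0.01, -0.78 and -0.87, with intervals below 0 on days 10 and 14. These ratios are not corrected for transcript length, and the length assigned to some genes differed between libraries. Asns had 1547 bases on day 0 and 2001 on day 2, while Atf4 had 1724 on both. In TPM, a level per length, Asns changed by -1.41 and Atf4 by -1.64 on day 2. Trib3 went from 2026 bases on day 0 to 1647 on day 14, and Psat1 from 1776 on day 0 to 2381 on day 10. The part of these lengths in the ratios was not tested.

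**Figure D3:**
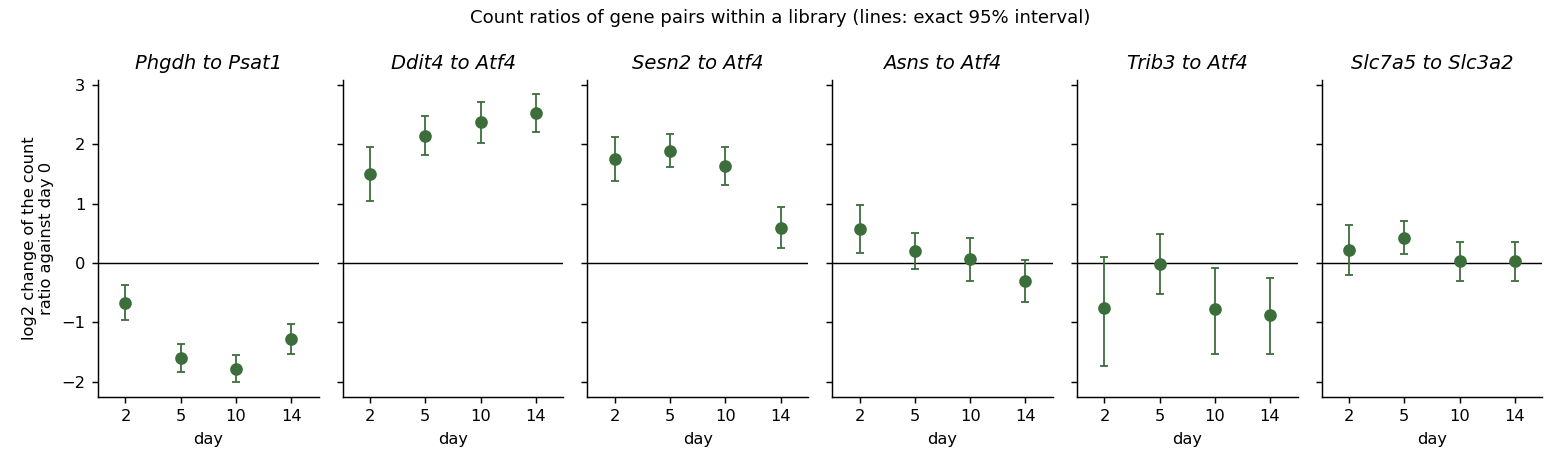
Log2 change of a within-library count ratio against day 0 (y axis) on days 2, 5, 10 and 14 (x axis) for 6 gene pairs, with exact 95% intervals of counting error. Phgdh to Psat1 lies below 0 and Ddit4 and Sesn2 to Atf4 lie above 0 on all 4 days, whereas Slc7a5 to Slc3a2 stays between 0.03 and 0.43.

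Chac1 encodes an enzyme that breaks down glutathione and is a late target of ATF4 with ATF3 and CHOP. Its counts were low, at 33, 14, 26, 7 and 31 expected counts (ENSMUSG00000027313, chr2:119351229-119354381, plus strand). Normalized, these were 32.7, 25.3, 22.8, 5.00 and 27.7. The day 10 library stood below the other 4, with a change of -2.49 (-4.13 to -1.51), while the changes on days 2, 5 and 14 (-0.35, -0.50 and -0.23) had intervals that included 0. With TPM the values of days 5 (0.16) and 14 (0.57) turned positive, as did that of day 14 with total counts (0.12). Its ratio to Atf4 on day 10 changed by -0.76 (-2.19 to 0.45), which 7 counts cannot separate from 0.

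Steps between neighbouring later days leave out the day 0 library. From day 5 to day 10 all 10 had lower values and 4 of them (Trib3, Chac1, Sesn2 and Slc7a5) fell past 2-fold, where 9.50% of all genes fell and 12.8% rose. Past 2-fold were 5 with DESeq2 size factors and with quantile normalization, 3 with total counts and 2 with TPM. Of all genes 10.2%, 11.6%, 7.87% and 3.21% fell under these scalings, in that order. The Psat1 step, -0.07 (-0.25 to 0.11), was within counting error, and Psat1 was higher on day 10 with total counts. The median step was -0.91, beside -0.01 over all genes, and -0.45 beside 0.39 with TPM, where Psat1 and Phgdh were higher on day 10. Under each of the 6 scalings all 10 genes stepped below the median of all genes. From day 10 to day 14, 8 of the 10 were higher and 1 (Chac1) rose past 2-fold, with 4.73% of all genes rising and 8.33% falling. The median step there was 0.42, beside 0.02 over all genes, and Psat1 (-0.42) and Sesn2 (-0.22) went the other way. With TPM 6 were higher and the median was 0.31, beside -0.24 over all genes. From day 2 to day 5, 1 (Trib3, 2.00-fold) was at the threshold upward, beside 19.0% of all genes, and none fell, beside 12.5%. That number was 0 with DESeq2 size factors (18.3% of all genes) and with quantile normalization (16.6%), 3 with total counts (31.8% of all genes) and 5 with TPM (43.4%). The steps into and out of day 10 share its library, where Chac1 had 7 expected counts.

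Transcript length moved with the change of genes in these libraries. With tested genes split by length into 4 groups of equal number, the median change by day 14 ran from -0.66 in the shortest group to 0.49 in the longest. By day 10 it was -0.09 in the second group, 0.41 in the third and 0.87 in the longest. Of the 10 genes, 8 lie in the second group (1611 to 2539 bases) and 2, Sesn2 and Slc7a5, in the third. Within their own length group on day 10, Trib3 stood at percentile 2.94, Chac1 at 3.51, Slc7a5 at 5.43, Atf4 at 6.35, Phgdh at 6.56 and Asns at 6.89 of the changes. Shmt2 was at 19.9, Sesn2 at 26.8, Psat1 at 48.4 and Ddit4 at 65.3. The part of length in the result was not tested.

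The wider pathway was read through gene lists of the same response. Counts of these lists on day 10 stand against the 22.3% of all tested genes that fell and the 28.7% that rose. Cytosolic aminoacyl-tRNA synthetases, the enzymes that load amino acids on tRNAs and include several ATF4 targets, had the lowest day 10 median of the 8 other lists. Of 20 measured, 1, 5, 12 and 10 fell on days 2, 5, 10 and 14 and none rose, with medians of -0.32, -0.82, -1.14 and -1.01. Over all tested genes 13.1%, 13.6%, 22.3% and 19.9% fell on those days. With TPM 6, 0, 1 and 1 of the 20 fell, beside 14.0%, 3.98%, 6.77% and 6.97% of all genes, and the medians (-0.57, -0.16, -0.18 and -0.31) were negative as well. All 20 were below the median of all genes on day 10 under each of the 6 scalings. Farsb changed by -2.44 on day 10, Rars by -2.11 and Kars by -1.85, and Dars had the smallest change, at -0.21.

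**Figure D4:**
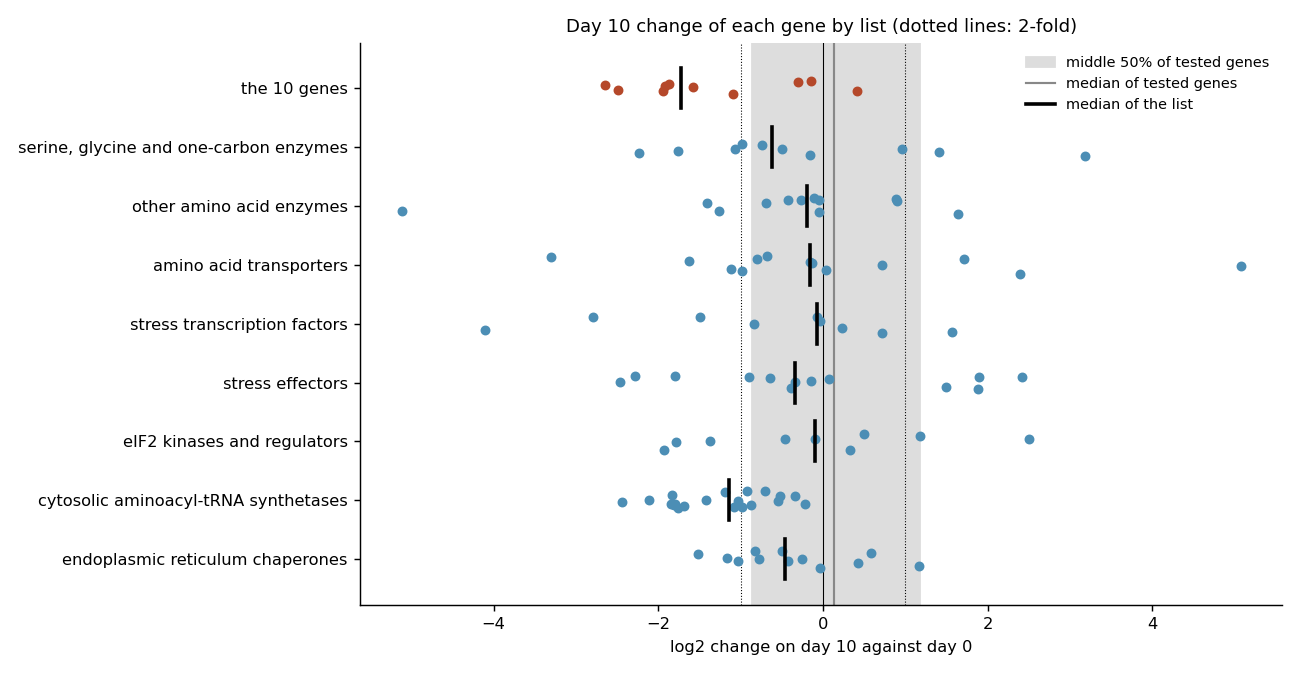
Log2 change on day 10 against day 0 (x axis, TMM) of each tested gene in 9 lists (rows); black bars are list medians, the grey band holds the middle 50% of tested genes and dotted lines mark 2-fold. The 10 genes have their bar at -1.73 and the tRNA synthetases at -1.14, and the other bars lie between -0.62 and -0.07.

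Stress factors that share targets with ATF4 differed in direction. Of 9 stress transcription factors, 4, 2, 3 and 2 fell and 1, 0, 1 and 1 rose on days 2, 5, 10 and 14. Over all tested genes 13.1%, 13.6%, 22.3% and 19.9% fell and 15.2%, 20.2%, 28.7% and 24.5% rose on those days. The median of the 9 on day 10 (-0.07) was positive with total counts and TPM. Ddit3, which encodes CHOP, the factor tied to death under prolonged stress, had 1618 normalized counts on day 0 and 391, 234, 92.7 and 168 later. Its change of -4.11 (-4.39 to -3.87) on day 10 exceeded that of Atf4, and the count ratio of Ddit3 to Atf4 went from 0.993 on day 0 to 0.220 on day 10. Atf5, also translated when eIF2α is phosphorylated, had 1778, 542, 570.5, 255 and 387 normalized counts, with a change of -2.80 on day 10. Atf3, a stress-induced repressor, ran the other way late, with 78.2, 34.4, 48.1, 234 and 2007 normalized counts and a change of 4.66 (4.36 to 5.02) on day 14. Cebpd, which was on the list, is not analysed here.

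Of 10 further serine, glycine and folate enzymes, 3 fell and 2 rose on day 10, near the shares of all genes, and the median of -0.62 turned to 0.38 with TPM. Mthfd2, the mitochondrial folate enzyme that follows Shmt2, had 139, 97.7, 79.6, 28.6 and 51.0 normalized counts and changed by -2.24 (-2.82 to -1.76) on day 10. Aldh1l2, the mitochondrial enzyme that oxidizes formyl-folate, had 27.2, 19.9, 84.0, 256 and 145 and changed by 3.19 on day 10. Neither Mthfd2 nor Aldh1l2 changed direction on day 10 with TPM, at -1.01 and 3.57.

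Of 12 other amino acid enzymes that passed the filter, 3 fell and 1 rose on day 10, and the median of -0.19 was positive with total counts and TPM. Bcat1, the cytosolic enzyme of branched-chain amino acid breakdown, had 327, 369, 74.4, 8.50 and 12.5 normalized counts, with a change of -5.11 (-6.22 to -4.43) on day 10. Glul, glutamine synthetase, had 80.2, 148, 179, 251 and 347, and changed by 2.10 on day 14. Pck2, the mitochondrial enzyme that makes phosphoenolpyruvate and a known ATF4 target, peaked on day 2 with 464 normalized counts against 133 on day 0, a change of 1.80 (1.50 to 2.12).

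Among 13 amino acid transporters, 3 rose and 3 fell on day 10, and the median of -0.15 turned positive with total counts and TPM. Slc7a11, the cystine transporter subunit and an ATF4 target, had 8.90, 24.2, 88.5, 31.6 and 11.2 normalized counts, so it was high on day 5 and back near its start on day 14. Slc38a4, a transporter of small neutral amino acids, had 248 on day 0 and 81.4, 31.5, 24.3 and 19.7 later. Slc6a9, the glycine transporter, went from 2.99 expected counts at the start to 279 at the end, and the day 14 interval of its log2 change was 4.83 to 8.68.

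Of 13 stress effectors, 4 rose and 3 fell on day 10, with a median of -0.34 that was positive with total counts and TPM. Eif4ebp1, a repressor of cap-dependent translation, had 931, 1009, 405, 168 and 310 normalized counts and changed by -2.47 on day 10. Stc2, a secreted glycoprotein, changed by 2.77 on day 14. Paralogs of the 10 genes went in both directions. Trib2 rose on every later day, with 57.4, 203, 316, 216 and 134 normalized counts, and was above day 0 with TPM as well, whereas Trib3 fell. Sesn1 had 26.7, 43.4, 49.0, 101 and 76.9 and Sesn3 had 16.8, 57.9, 63.9, 94.3 and 30.4, both highest on day 10, where Sesn2 was 156 after its peak. Trib1 changed by 0.62 or less, Ddit4l by -0.82 to 1.18 and Chac2 by -1.14 to -0.27.

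Upstream of the response, 2 of 9 eIF2 kinases and regulators rose and 3 fell on day 10, near the shares of all genes, and the median of -0.09 was positive with total counts, TPM and quantile normalization. Eif2ak3 (PERK) had 26.7, 47.0, 136, 156 and 147 normalized counts and changed by 2.50 (1.97 to 3.18) on day 10. Eif2ak4 (GCN2) had 66.3, 56.1, 71.8, 94.3 and 80.4, with changes from -0.24 to 0.50. Eif2s1, which encodes eIF2α itself, changed by -1.93 and Eif2b5, a subunit of its exchange factor, by -1.78 on day 10. Of 12 endoplasmic reticulum chaperones, 1 rose and 3 fell on day 10, with a median of -0.46 that turned positive with total counts, TPM and quantile normalization. Dnajb9 changed by 1.17, Herpud1 by -1.17 and Calr by -1.52 on that day.

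By shape over the 5 libraries, Atf4 was most like Rbm17, Slc3a2 and Ftsj3 among 3269 genes whose expected count was 100 or more throughout. Likeness was the root mean square difference of centred log2 profiles, which was 0.136, 0.138 and 0.138. Asns was most like Gm14214, Arpc2 and Rbx1, at 0.0391, 0.0764 and 0.0765, and 113 genes lay within 0.2 of it. Of the 10 genes, only Phgdh, Psat1, Sesn2 and Shmt2 had enough counts in every library to be ranked against Atf4. Phgdh came nearest among them, at rank 351 with 0.414, and Sesn2 was the farthest, at rank 2084 with 0.745. Asns, with 86 expected counts on day 2, was not ranked, but its difference from Atf4 was smaller than that of Phgdh, at 0.285. The profiles share libraries and depth, so these are descriptions.

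Markers of several cell types were measured in the same libraries. In bulk RNA, fewer cells of a type and less RNA per cell cannot be told apart. Over all tested genes 15.2%, 20.2%, 28.7% and 24.5% rose and 13.1%, 13.6%, 22.3% and 19.9% fell on days 2, 5, 10 and 14. Fibroblast markers stayed high, with summed normalized counts of 10 genes from 61069 to 107884 and none at 0. Of these 10, 2, 2, 2 and 2 rose and 2, 2, 3 and 2 fell on the 4 days, near the shares of all genes. Macrophage markers (8 genes) summed to 210 on day 0, with Ptprc and Cd5l at 0, and to 1717, 3646, 2199 and 1631 later, with 8, 8, 7 and 7 rising. Schwann cell and neural crest markers (6 genes, led by Sox10) summed to 75.9 on day 0 and reached 4318 on day 10 and 5629 on day 14, when all 6 had risen. Neuron markers (7 genes) summed to between 275 and 668 with the highest sum on day 0. Of the 5 that passed the filter, 1, 3, 3 and 3 rose and 1, 2, 2 and 2 fell on days 2, 5, 10 and 14, and Rbfox3 was at 0 in all 5 libraries. Their part in the changes of the 10 genes was not tested.

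**Figure D5:**
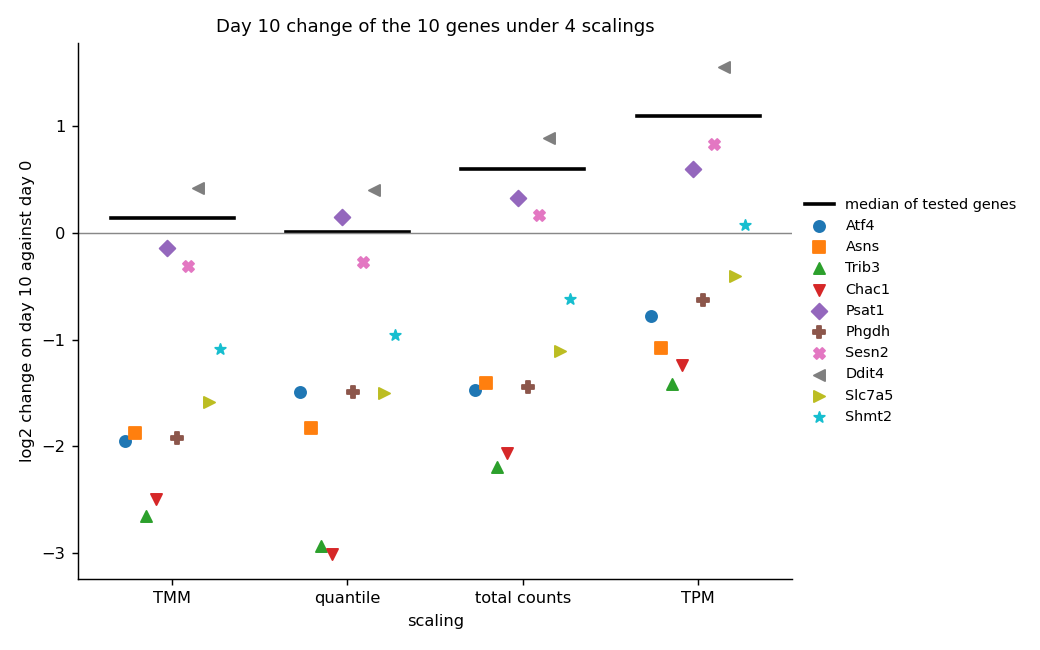
Log2 change on day 10 against day 0 (y axis) of the 10 genes under TMM, quantile normalization, total counts and TPM (x axis); black bars mark the median of all tested genes, which moves from 0.01 to 1.09. Atf4, Asns, Trib3, Chac1, Phgdh, Slc7a5, Shmt2 and Sesn2 lie below the bar under each of the 4, and Ddit4 above it.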

How the data were processed

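RNA from 5 libraries, 1 for each of days 0, 2, 5, 10 and 14, was assigned to days by the sample labels; the treatment note dates the last harvest 1 day later, and the seeding densities in the labels and the paper differ. Libraries were made with the Illumina TruSeq RNA kit, and the submitters' processing notes name Bowtie, RSEM and mm10, without versions. The authors deposited RSEM expected counts, TPM and FPKM per gene, and FPKM was not used. In the deposited tables the effective length equals the length in all 27729 genes. The gene annotation is not given in the sources used here; coordinates came from GENCODE release M21 (the same build), in which 27247 of the gene IDs were found.

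Expected counts were scaled by TMM over all 5 libraries (edgeR 4.0.16), and 13346 genes with 10 or more in at least 1 library were tested. The pseudocount was 1 and the threshold 2-fold; counts were rounded to whole numbers for intervals only, at a confidence level of 95%. A count of 0 allows up to 3 counts. Intervals cover counting error only. Near-identical copies (90% identity or more over at least 100 bases) were sought with blastn 2.17.0. Scripts were tested on simulated counts. Alternatives were DESeq2 1.42.0 size factors, total counts, TMM without Gm42418 and Lars2, TPM, quantile normalization, other pseudocounts, filters and thresholds and, added after seeing the data, TMM without the day 2 library and TPM counts over all genes.

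The 10 genes and all lists were chosen with earlier results of these data known. Named from each other list were the 3 genes with the largest absolute change on any day among those with 100 or more expected counts in a library, with paralogs of the 10 and the 3 genes most like Atf4 and Asns. Psph, Eif2ak4 and Dars were added after their values were seen. Gcn1 was matched as Gcn1l1.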

Additional observations from a re-analysis of the deposited data

How the results depend on the processing

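No paired analysis was possible because each day has 1 library, and for the same reason no replicate could be left out. Depth limits Chac1 and Trib3 most, with as few as 7 and 13 counts. With TPM, the number of the 10 genes that fell became 5, 0, 3 and 0 on days 2, 5, 10 and 14 and the number that rose 2 on day 5 and 1 on day 10; their medians were 0.16, -0.52 and -0.14 on days 5, 10 and 14, and Shmt2 turned from -1.09 to 0.0726 on day 10. Over all tested genes with TPM, 14.0%, 3.98%, 6.77% and 6.97% fell on those 4 days, and 32.0% rose on day 5 and 52.9% on day 10. With total counts the medians were -0.16, -1.26 and -0.63 on days 5, 10 and 14, with 2 risen and 1 fallen on day 5 and 3 fallen on day 14. Over all tested genes, total counts gave 28.6% risen and 7.55% fallen on day 5 and 13.6% fallen on day 14. A 4-fold threshold left 1, 0, 2 and 0 fallen on days 2, 5, 10 and 14 and 0 risen on days 5 and 14. The share of all genes past 4-fold was not counted, but the 5th percentile of their log2 changes was -1.62, -1.59, -2.38 and -2.18 on the 4 days. The mean on day 10 was -1.36, and quantile normalization gave a median of -0.71 on day 14. The cause of these moves was not tested, except that a higher threshold passes fewer genes by construction. DESeq2 size factors, TMM without Gm42418 and Lars2 or without the day 2 library, a pseudocount of 5 and counts without a pseudocount left the medians and the counts of the 10 genes against day 0 within their counting interval or 1.5 times of the values reported; steps between later days were recomputed under the scalings alone.

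Over all genes tested, TPM gave 1055 risen on day 2, 4269 and 531 risen and fallen on day 5, 7057 and 904 on day 10 and 5548 and 930 on day 14, against 2023, 2690 and 1821, 3826 and 2974, and 3268 and 2657. Requiring 10 counts in every library gave 927 and 915 risen and fallen on day 2 (2023 and 1745 as reported) and 1091, 1801 and 1500 risen on days 5, 10 and 14. Without a filter, 3529 rose on day 2. Both settings change which genes are counted, so these numbers are not shares of the 13346 tested genes.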
